A study of Mus musculus with 2 samples.

Results

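The genes described are those of enzymes with which the liver breaks down amino acids, 39 in all, among them the enzymes of tyrosine, tryptophan, histidine, lysine, branched-chain amino acid, glycine and methionine catabolism. They were listed by pathway, with earlier results of these arrays already known, and the array was searched for probe sets annotated with exactly 1 of these symbols. A total of 35 of the 39 genes had such a probe set, out of 18193 genes on the array, and all 35 were measured, meaning that the mean log2 value over both arrays was at least 6, as it was for 9299 genes. The other 4, Amt, Gls2, Sds and Sdsl, were not analysed here.

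Liver RNA was compared between untreated Yap+/+ mice, the wild type, and Yap+/- mice, heterozygous for the gene of YAP, a co-activator of transcription that the Hippo growth control pathway restrains. Both groups were killed at postnatal day 30, and the Yap+/- line had been crossed to C57BL/6 for at least 6 generations. Livers of 5 mice were pooled per genotype and each pool was read on 1 array, so each value below is a single measurement of a pool, without replicates, and differences between genotypes could not be tested. The nature of the Yap allele, the sex of the mice and their feeding before death were not described in the labels used here.

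The liver is the main site at which surplus amino acids are degraded. A first enzyme usually removes or transfers the amino group to form glutamate, the nitrogen goes to the urea cycle, and the carbon skeletons are oxidised or used for glucose. Many of these genes are expressed almost only in hepatocytes, and several, such as Tat and Tdo2, are classical targets of glucocorticoids.

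Some measured facts apply to all comparisons. The columns of the table had nearly the same distribution, with a largest gap of 0.047 between sorted values, so an overall change in RNA amount would not show. The excess of 3-prime over 5-prime signal, a mark of RNA or labelling quality, was larger in the Yap+/- sample by 0.20 to 0.22 on the log2 scale for beta-actin, Gapdh and pyruvate carboxylase. All 14 probe sets for added bacterial hybridisation controls were brighter on the Yap+/- array, by 0.27 to 0.45. The 3 probe sets for 18S rRNA were dimmer there, with log2 differences, Yap+/- minus Yap+/+, from -1.42 to -0.89. The part of these array differences in the results below was not tested. All 9 hepatocyte markers analysed, such as Alb and Apoa1, were measured in both pools, with a median log2 difference, Yap+/- minus Yap+/+ as in all values below, of 0.025. Kidney markers were all under the level taken as measured, 6 of 6, and of the exocrine pancreas markers 4 of 5 were. Of these pancreas markers, Ctrb1 read 6.41 in Yap+/+ and 5.13 in Yap+/-, and Reg1 5.82 and 4.05. Prss2 and Cpa1 differed by -0.22 and 0.048. The measured one, Cela1, read 9.48 and 9.52.

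Most of the breakdown enzymes read slightly lower in the Yap+/- liver. Of the 35 genes, 27 were lower and 8 higher, so 77.1% were lower, whereas 49.6% of all measured genes were. Among the 2789 measured genes at least as bright as the dimmest of these enzymes, 50.2% were lower. The median log2 difference of the enzymes was -0.090, against 0.00 over all measured genes and -0.0012 over the bright ones. The differences ran from -0.46 for Got1 to 0.17 for Cbs and were small one by one. Amino acid breakdown in bulk liver RNA is read as a mixture, in which fewer hepatocytes and less RNA per hepatocyte cannot be told apart.

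The size of single differences stayed near the disagreement between probe sets of 1 gene. Such probe sets are read on the same 2 arrays, so variation between pools or arrays that they share is not in it. It also holds the scatter of both probe sets, so a difference inside it is not thereby shown to be absent. It was taken over probe sets with a mean of at least 6, while the means of these enzymes start at 9.13. Over 3406 genes, the disagreement between a gene's 2 brightest probe sets about this difference had a robust SD of 0.17, and 29 of the 35 enzymes differed by less than that. Of the rest, 6 were lower and 0 higher. These 6 are 17.1% of the enzymes, while 12.9% of all measured genes and 9.0% of the bright ones were lower by as much, and 13.2% and 9.43% were higher by as much. At 1.3-fold, 1 of the 35 enzymes was lower, which is 2.86%, beside 2.15% of all measured genes, a share near the background. At that size 0 were higher, beside 2.63% of measured genes. None of the 35 reached 1.5-fold, which 0.645% of measured genes did downwards and 0.699% upwards, or 2-fold, which 0.226% did downwards and 0.0968% upwards.

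**Figure D1:**
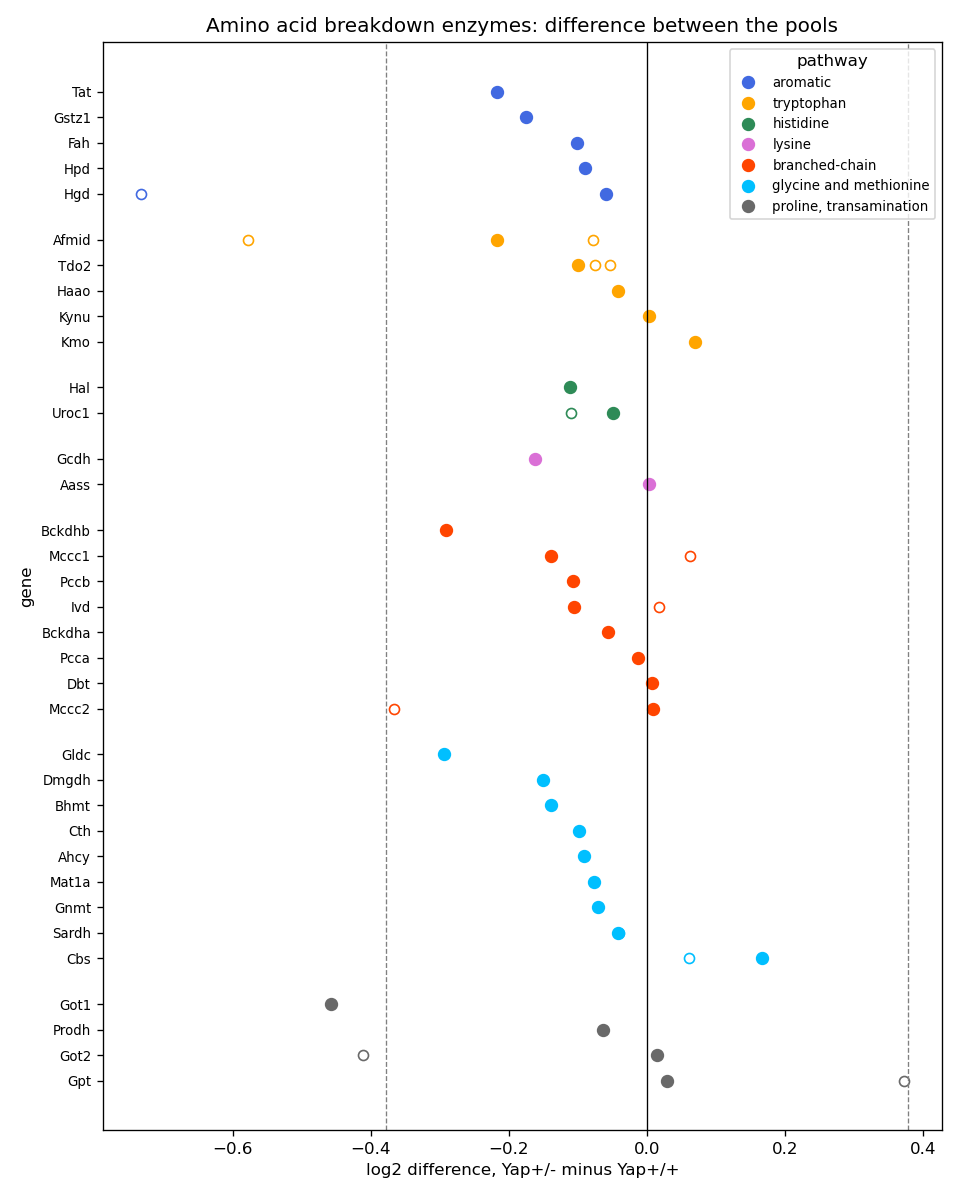
Log2 difference, Yap+/- minus Yap+/+, of the 35 enzymes (rows), coloured by pathway. Filled points are the brightest probe set of a gene, open points its other measured probe sets, and dashed lines mark 1.3-fold. Of the filled points, 27 lie left of 0, and Got1 alone lies beyond a dashed line. There are no replicates and no error bars.

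The cytosolic aspartate aminotransferase Got1, which moves amino groups between aspartate and glutamate, differed most. Its only probe set gave 11.7 in Yap+/+ and 11.3 in Yap+/-, a level 1.37-fold lower. Its mitochondrial counterpart Got2 read 12.76 and 12.77, a log2 difference of 0.015. A second, dimmer probe set of Got2 went from 9.27 to 8.86, a difference of -0.41, so the probe sets of Got2 do not give 1 direction. The alanine aminotransferase Gpt read 11.81 and 11.84, and its dimmer probe set 7.78 and 8.15, both higher in Yap+/-, by 0.029 and 0.37. Prodh, the mitochondrial proline dehydrogenase, read 11.3 and 11.2, a difference of -0.064. With the serine and glutamine enzymes not analysed, these 4 genes split evenly, 2 lower and 2 higher, with a median of -0.024. With only probe sets whose names carry no suffix for shared targets, 3 of the 4 were lower and the median was -0.24.

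The tyrosine pathway was lower at each of its steps. All 5 enzymes read lower in Yap+/-, with a median of -0.10 and a range from -0.22 to -0.059. When all probe sets of a gene were averaged, the median was -0.18 and Hgd stood at -0.40. Tyrosine aminotransferase, Tat, makes the first and hormone-controlled step and read 12.3 in Yap+/+ and 12.1 in Yap+/-, 1.16-fold lower. Hpd, which oxidises the product to homogentisate, read 14.5 and 14.4. The ring-opening homogentisate dioxygenase Hgd read 13.33 and 13.27 on its bright probe set, while a far dimmer one read 6.85 and 6.11, a difference of -0.73. The isomerase Gstz1 followed with 12.2 and 12.0, or 1.13-fold lower, and Fah, the last enzyme, which releases fumarate and acetoacetate, with 13.1 and 13.0, or 1.07-fold lower. Tat and Gstz1 lay outside the probe set disagreement of 0.17, and Hpd, Hgd and Fah inside it. The 5 measured genes of tetrahydrobiopterin synthesis and recycling, Qdpr, Pcbd1, Pcbd2, Gch1 and Gchfr, had a median of -0.0019, with 3 lower and 2 higher.

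The tryptophan pathway through kynurenine went both ways, with its first 2 steps lower. Tdo2, the dioxygenase that opens the tryptophan ring, read 13.9 in Yap+/+ and 13.8 in Yap+/-, and its other probe sets differed by -0.075 and -0.053 beside -0.10 for the brightest, so all 3 read lower by a little. Afmid, the formamidase that yields kynurenine, read 10.19 and 9.98, 1.16-fold lower, and its other measured probe sets differed by -0.58 and -0.078. Kmo, the kynurenine hydroxylase of the outer mitochondrial membrane, read 10.92 and 10.99, higher by 0.070. Kynureninase, Kynu, read 10.32 on both arrays, and Haao, the dioxygenase that leads towards NAD, read 12.15 and 12.10. The median of the 5 was -0.041, with 3 lower and 2 higher. Of 6 further measured genes of tryptophan breakdown, 3 were lower and 3 higher, with a median of -0.060.

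Histidine and lysine breakdown are represented by 2 enzymes each. Histidase, Hal, which removes the amino group of histidine, read 11.9 in Yap+/+ and 11.8 in Yap+/-, 1.08-fold lower. Urocanase, Uroc1, the next step, read 11.83 and 11.78, and its second probe set differed by -0.11 beside -0.050 for the first. Aass, the bifunctional enzyme that starts lysine breakdown, read 12.35 on both arrays, a difference of 0.0037. Gcdh, the glutaryl-CoA dehydrogenase further down the lysine and tryptophan routes, read 11.5 and 11.4, 1.12-fold lower. All 4 lay inside the probe set disagreement. Of 4 further measured genes of histidine breakdown, 2 were lower and 2 higher, with a median of -0.023. Of 6 further measured genes of lysine breakdown, 4 were lower and 2 higher, with a median of -0.066.

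In branched-chain amino acid breakdown, subunits of the same complex did not read alike. The branched-chain ketoacid dehydrogenase complex commits leucine, isoleucine and valine to oxidation. Its E1 beta subunit Bckdhb read 11.4 in Yap+/+ and 11.1 in Yap+/-, 1.22-fold lower. Its partner E1 alpha, Bckdha, read 10.49 and 10.44, and the E2 core Dbt 9.73 on both arrays, with differences of -0.057 and 0.0077. Each of these subunits was read by 1 probe set. Bckdhb lay outside the probe set disagreement and the others inside it, and the gaps between the subunits were not tested.

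The leucine branch continues with Ivd, isovaleryl-CoA dehydrogenase, which read 10.3 and 10.2 on one probe set and 10.20 and 10.22 on the other. The biotin-carrying subunit of methylcrotonyl-CoA carboxylase, Mccc1, differed by -0.14, and its second probe set by 0.063. The other subunit, Mccc2, read 9.88 on both arrays, but 7.97 and 7.61 on its second probe set, a difference of -0.37. For these 3 leucine genes the direction therefore depended on the probe set. Propionyl-CoA carboxylase, where the valine and isoleucine branches meet, differed by -0.013 for its alpha subunit Pcca and by -0.11 for its beta subunit Pccb. In all, 6 of the 8 branched-chain genes were lower, with a median of -0.081, or -0.050 when all probe sets of a gene were averaged. A further 16 measured genes of the same routes gave 13 lower and 3 higher, a median of -0.074, and 0 of them reached 1.3-fold.

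Glycine and methionine enzymes, which run the one-carbon traffic of the hepatocyte, were lower in 8 of 9 analysed genes, with a median of -0.091. Gldc, the decarboxylase of the mitochondrial glycine cleavage system, read 10.9 in Yap+/+ and 10.6 in Yap+/-, 1.23-fold lower, while Gcsh, the lipoyl carrier protein of the same system, read 11.77 and 11.79. The 4 listed enzymes of the methionine cycle all read lower by a little. Mat1a, which makes S-adenosylmethionine in adult liver, differed by -0.076, Gnmt, which consumes it to methylate glycine, by -0.070, Ahcy, which clears the resulting S-adenosylhomocysteine, by -0.091, and Bhmt, which remethylates homocysteine with betaine, by -0.14. The other remethylation route could not be read well. Mtrr, which keeps methionine synthase active, read 6.05 in Yap+/+ and 6.39 in Yap+/-, close to the minimum. Mtr, the synthase itself, was under the minimum at 4.34 and 4.65. Dmgdh and Sardh, the mitochondrial dehydrogenases that take the methyl groups from dimethylglycine and sarcosine, differed by -0.15 and -0.042, and both probe sets of Sardh read lower. Bhmt and Dmgdh are near neighbours in the genome with only Bhmt2 between them among protein-coding genes, and Bhmt2 differed by -0.11. Homocysteine leaves the cycle through cystathionine, and here the 2 enzymes went opposite ways. Cystathionine beta-synthase, Cbs, read 11.4 in Yap+/+ and 11.6 in Yap+/-, 1.12-fold higher and the highest difference among the 35 genes, with 9.88 and 9.94 on its second probe set. The names of the Cbs probe sets all carry a suffix for shared targets. Cystathionine gamma-lyase, Cth, read 13.1 and 13.0, 1.07-fold lower. Both lay inside the probe set disagreement. Of 17 further measured genes of the glycine and methionine routes, 11 were lower and 6 higher, with a median of -0.10.

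Promoters are shown for 3 genes at the ends of this range, Got1 and Gldc, the furthest down, and Cbs, the furthest up. They are RefSeq sequences of build GRCm38.p6, from 250 bases before to 50 bases after the start, 5′ to 3′ on the strand of the gene, which for all 3 is the minus strand. They lie at chr19:43524556-43524855 for Got1, chr19:30175392-30175691 for Gldc and chr17:31637156-31637455 for Cbs. Capitals mark a match to 1 of 7 motifs searched on both strands.
Got1: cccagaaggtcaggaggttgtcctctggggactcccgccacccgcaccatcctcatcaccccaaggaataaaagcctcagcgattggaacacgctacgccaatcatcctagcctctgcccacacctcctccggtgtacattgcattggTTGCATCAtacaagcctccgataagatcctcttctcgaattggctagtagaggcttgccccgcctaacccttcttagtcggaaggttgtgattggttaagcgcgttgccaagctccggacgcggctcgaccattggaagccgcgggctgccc
Gldc: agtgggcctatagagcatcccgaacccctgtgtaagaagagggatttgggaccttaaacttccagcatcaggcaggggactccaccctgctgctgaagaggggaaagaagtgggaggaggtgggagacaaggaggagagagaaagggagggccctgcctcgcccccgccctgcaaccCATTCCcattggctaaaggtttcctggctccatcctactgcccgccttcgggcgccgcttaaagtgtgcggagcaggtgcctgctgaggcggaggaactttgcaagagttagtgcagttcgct
Cbs: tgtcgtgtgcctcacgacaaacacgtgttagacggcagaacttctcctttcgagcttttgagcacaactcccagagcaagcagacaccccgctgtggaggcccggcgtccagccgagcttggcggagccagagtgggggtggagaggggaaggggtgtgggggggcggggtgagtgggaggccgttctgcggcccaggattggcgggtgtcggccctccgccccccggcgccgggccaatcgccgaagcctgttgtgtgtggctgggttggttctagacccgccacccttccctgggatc
In Got1 the capitals are the reverse complement of TGATGCAA, a composite site for C/EBP and ATF factors, with its first base 102 bases before the start. In Gldc they are the reverse complement of GGAATG, the core bound by TEAD factors, the DNA-binding partners of YAP, 73 bases before the start, and Cbs held 0 matches.

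Over all enzymes, 31 had a promoter in the table, 34 promoters in all. The TEAD core GGAATG was in 7 of the 34, or 20.6%, beside 14.7% of 32851 promoters of the same length, the genes being Fah, Gcdh, Gldc, Pccb, Prodh, Sardh and Tdo2. TGATGCAA was in 1 of the 34, or 2.94%, beside 0.895%. The glucocorticoid half-site AGAACA was in 4, or 11.8%, beside 19.0%, and the TATA motif TATAAA in 4, or 11.8%, beside 13.6%. The cyclic AMP element TGACGTCA, the C/EBP motif TTGCGCAA and the HNF4 motif CAAAGTCCA were in 0 of 34, beside 1.79%, 0.183% and 0.475% of all promoters. These are matches of letters in a short window, and no binding was measured.

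**Figure D2:**
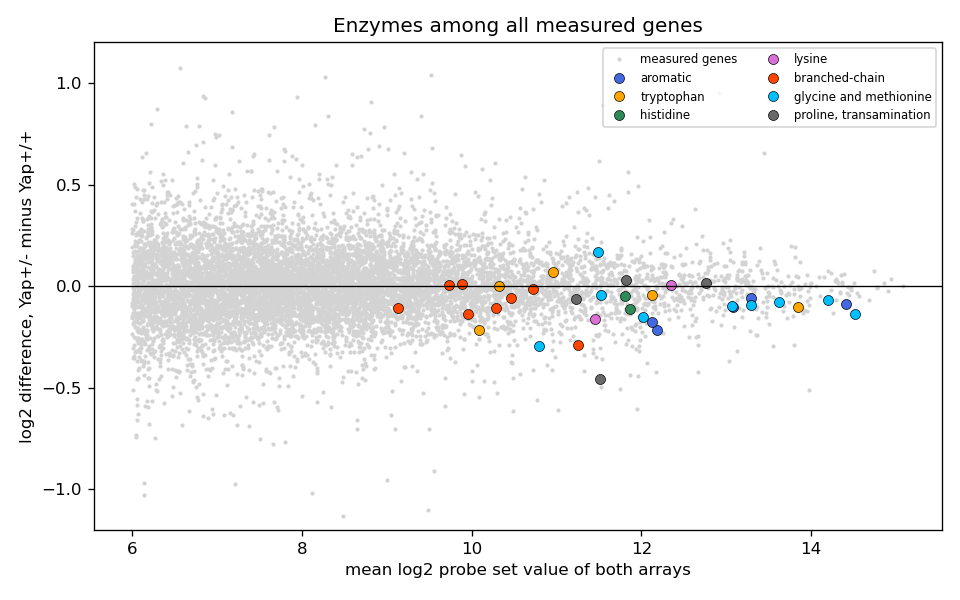
Log2 difference, Yap+/- minus Yap+/+ (vertical axis, cut at 1.2 in each direction, leaving out 23 genes), against the mean log2 probe set value of both arrays (horizontal axis). Grey points are measured genes and coloured points the 35 enzymes, which have means from 9.13 to 14.5 and mostly lie just under 0.

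The differences of the enzymes had a robust SD of 0.073, beside 0.12 over the bright measured genes, whose spread narrows with brightness. Sorted by cell compartment, a grouping chosen after the values were seen, 16 of 19 cytosolic enzymes were lower, with a median of -0.091, and 11 of 16 mitochondrial enzymes, with a median of -0.060. By chemistry, likewise grouped afterwards, the 4 ring-cleaving or aromatic dioxygenases Tdo2, Hpd, Hgd and Haao were all lower, between -0.10 and -0.041, whereas the 8 enzymes that use pyridoxal phosphate, the vitamin B6 cofactor, were 4 lower and 4 higher and held both extremes, Got1 and Cbs. The 6 flavoprotein dehydrogenases and hydroxylases were lower except Kmo.

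The dimmer probe sets of these genes spread more widely. A total of 11 enzymes had 13 further measured probe sets, of which 9 were lower and 4 higher, with a median of -0.075 beside -0.050 for the brightest probe sets of the same genes. The sign was that of the brightest probe set in 9 of 13. The wide ones were Hgd, Afmid, Got2, Mccc2 and Gpt, at -0.73, -0.58, -0.41, -0.37 and 0.37, values beyond those of the bright probe sets of the same genes. The part of the transcript that each probe set reads was not looked up.

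Other genes of these pathways were also mostly lower. A list of 85 further genes of the same routes gave 67 measured genes, with a median of -0.078. Of these, 48, or 71.6%, were lower, beside 49.6% of all measured genes. At 1.3-fold 2 of the 67 were lower and 0 higher, beside 2.15% and 2.63% of all measured genes. Ethe1, the mitochondrial persulfide dioxygenase of sulfur amino acid breakdown, read 11.8 in Yap+/+ and 11.3 in Yap+/-, 1.41-fold lower. Aldh4a1, which follows Prodh in turning proline into glutamate, read 8.75 and 8.33, 1.33-fold lower. Among the 13 measured genes around serine, glutamine, proline and the aminotransferases, 12 were lower, with a median of -0.12, and Glul, the pericentral glutamine synthetase, read 12.96 and 12.95.

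The genes listed as regulators, hormone-responsive genes among them, leaned the other way. Of 21 measured transcription factors, hormone receptors and hormone-responsive genes, 14 were higher and 6 lower (median 0.12). The lower ones are 28.6%, beside 49.6% of all measured genes. At 1.3-fold 5 were higher and 1 lower, beside 2.63% and 2.15% of measured genes. Foxo1, which insulin restrains, read 8.88 in Yap+/+ and 9.53 in Yap+/-, 1.57-fold higher. Fkbp5, a glucocorticoid-induced chaperone gene, read 9.09 and 9.62, 1.44-fold higher, while Tsc22d3, also induced by glucocorticoids, read 10.22 and 10.02, 1.15-fold lower. Ppargc1a, a fasting-induced co-activator, read 8.06 and 8.56, 1.42-fold higher. Onecut1 was the one at least 1.3-fold lower, at 7.25 and 6.64. The glucocorticoid receptor gene Nr3c1 read 9.71 on both arrays, and Klf15, a factor that induces amino acid catabolic genes in fasting, 10.1 and 10.2. These regulators were listed with earlier results of these arrays known, and Foxo1 and Onecut1 among them.

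Zonal genes are given because Hal and Uroc1 belong to the periportal zone, where most amino acid breakdown takes place. Of 6 other periportal genes, 5 were higher, with a median of 0.14, while Hal and Uroc1 were both lower. Sult5a1 was the one at least 1.3-fold higher, at 7.80 and 8.19. Pericentral genes were lower in 11 of 12, with a median of -0.15, led by Cyp7a1 (2.39-fold), Lgr5 (1.55-fold, with a Yap+/- value of 5.76, so not exact) and Tbx3 (1.34-fold).

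Markers of other liver cells differed in the same pools. All 10 macrophage markers were higher in Yap+/-, with a median of 0.34, and their summed signal was 13.3 in Yap+/+ and 13.6 in Yap+/- on the log2 scale. Of 7 measured sinusoidal endothelial markers 6 were higher, with a median of 0.20 and summed signals of 12.1 and 12.4 over all 8. Stellate cell and smooth muscle markers were lower in 5 of 8, with a median of -0.076. At 1.3-fold 3 were lower and 0 higher, beside 2.15% and 2.63% of all measured genes. These were Acta2 by 2.19-fold, Tagln by 1.69-fold and Des by 1.33-fold. The others, Lrat, Reln, Dcn, Col1a1 and Col3a1, differed by -0.072, 0.0005, -0.080, 0.026 and 0.059. The 2 measured of 7 bile duct markers were both lower, Prom1 by 1.16-fold and Muc1 by a nominal 3.19-fold, from 7.19 to 5.51. The other 5 had a mean under the minimum and did not go 1 way. Among them, Krt19 read 6.73 and 4.83, and Krt7, Epcam and Cftr differed by -0.15, -0.11 and -0.14. Sox9 was higher by 0.26. Of the neutrophil and lymphocyte markers 1 each was measured, S100a9 and Ccl5, and both were higher, by 1.43 and 0.62, of which the first is not exact because S100a9 read 5.58 in Yap+/+. The summed signal of the 9 hepatocyte markers was 17.75 and 17.76. The part of these cell types' RNA in the lower enzyme values was not tested. Measured against the hepatocyte markers instead of all genes, the enzymes had a median of -0.11. These markers had means from 13.96 to 15.09, near the highest value on the arrays, 15.15. Whether such bright probe sets could show a change was not tested.

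**Figure D3:**
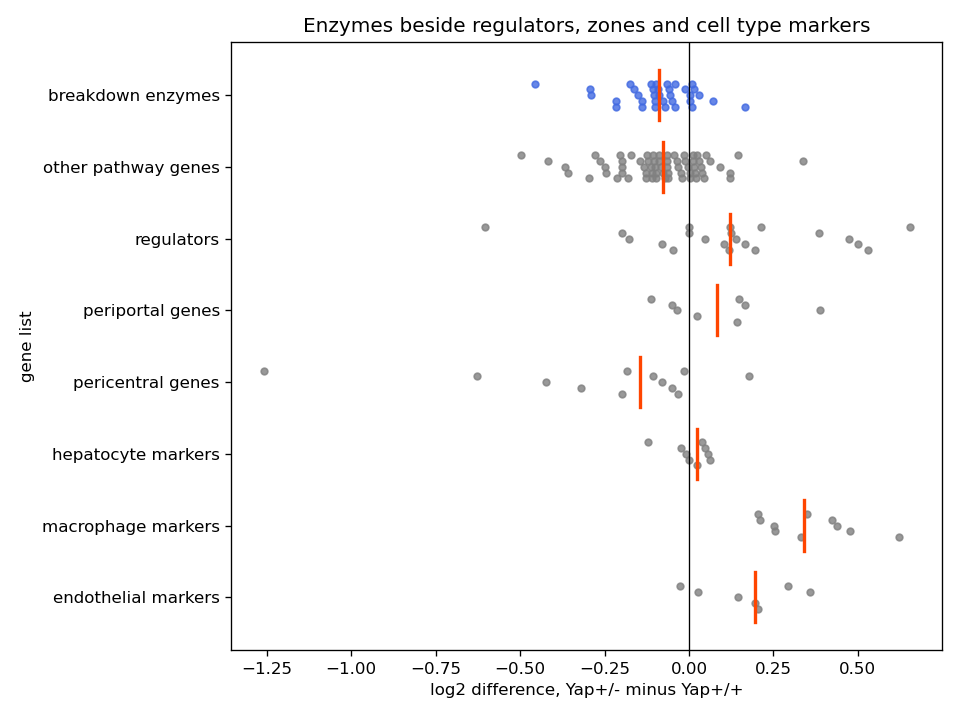
Log2 difference, Yap+/- minus Yap+/+ (horizontal axis), of each measured gene (point) in 8 lists (rows), with the median of the list as an orange-red bar. The breakdown enzymes and the other pathway genes have medians of -0.090 and -0.078, the regulators 0.12 and the macrophage markers 0.34; the points are spread vertically only to be visible.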

How the data were processed

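The authors deposited log2 values per probe set, made with RMA (background correction, quantile normalisation and probe summary) and Partek 6.5, per the submitters' processing notes, which give no settings here. RNA of pooled livers was labelled with a 3-prime kit and read on 1 array per genotype. Detection calls were not used, and the number of arrays limits precision. Gene names came from the platform annotation, with those with several symbols and the array controls left out. The brightest probe set represented a gene, and a mean of at least 6 counted as measured. All 35 gene identifiers were found in RefSeq without a change of symbol. The log2 difference is Yap+/- minus Yap+/+, with no test, and folds were counted at 1.3, 1.5 and 2. The naming rule asked for the enzymes at the ends of each pathway, and values of all 35 are given. Members and lists were chosen with earlier results of these data known. Counting was tested on simulated data, with planted changes larger than any enzyme difference reported here. Alternatives covered the filter, the choice of probe set, centring, a lowess trend, an offset of 64, and the folds. Tools were pandas 2.3.3 and numpy 2.4.6 under Python 3.11.15, with matplotlib 3.10.9 for plots and statsmodels 0.14.6 for lowess.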

Additional observations from a re-analysis of the deposited data

How the results depend on the processing

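The median difference of the enzymes stayed between -0.11 and -0.073 under 9 alternatives, and 27, 28 or 32 of 35 were lower. Cbs, Gstz1 and Haao dropped out, and 26 of 32 were lower, with only probe sets whose names carry no suffix for shared targets. With these probe sets, the proline and transamination median was -0.24 and that of the other pathway genes -0.10, as it was, at -0.103, with arrays centred on hepatocyte markers, an alternative added after seeing the data. The number of enzymes at least 1.3-fold lower was 2 with those probe sets and 2 when all probe sets of a gene were averaged, and 0 at 1.5-fold or 2-fold. How many of all measured genes passed 1.3-fold with these choices of probe set was not counted, so the counts of 2 have no background share. Of 277 values of single enzymes, 4 moved by more than the probe set disagreement. The sign changed in 7, all of enzymes within 0.015 of 0 as reported: Got2 and Mccc2 under another choice of probe set (-0.41 and -0.19), and Aass, Dbt, Kynu, Got2 and Mccc2 with arrays centred on hepatocyte markers. No paired analysis was possible because each genotype has 1 array. Signal over background could not be judged without detection calls.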
